A study of Homo sapiens with 6 samples.

Results

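The genes described here are the death ligand TRAIL, the receptors that bind it, the related receptor FAS, and the proteins that carry the signal from these receptors to the caspases. They were chosen as every probe set whose only gene symbol was TNFSF10, TNFRSF10A, TNFRSF10B, TNFRSF10C, TNFRSF10D, FAS, FADD, CASP8, CASP10 or CFLAR. This gave 31 of 19065 named probe sets, and 9 of the 10 genes had at least 1. No probe set stood for TNFRSF10A, the gene of the TRAIL receptor DR4, so it was not analysed here.

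The samples were total RNA from SUM44, a human invasive lobular breast carcinoma line that the labels give as ER+/PR+, and from LCCTam, a variant of SUM44 resistant to tamoxifen. Passages 74, 75 and 76 were sampled for SUM44 and passages 8, 9 and 10 for LCCTam, numbered below as replicates 1 to 3 of each line, each on its own array. Both lines were grown in the same SFIH medium, based on Ham's F12, and LCCTam also had 500 nM 4-hydroxytamoxifen, the active form of the drug. The drug and the line therefore cannot be told apart, and LCCTam is 1 variant of 1 parental line. Values are log2 expression after RMA, a method that corrects background, evens out the arrays and gives 1 value per probe set. Differences are LCCTam minus SUM44, so that 1 is a doubling, and a probe set passed where its limma p-value, adjusted by Benjamini-Hochberg over all 19065 named probe sets, was under 0.05.

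TRAIL, encoded by TNFSF10, is a membrane protein of the tumour necrosis factor family that can start apoptosis in the cell it touches. It binds the death receptors DR4 and DR5, which recruit the adaptor FADD and the initiator caspases 8 and 10, while the decoy receptors DcR1 and DcR2 bind TRAIL without a working death domain. The protein c-FLIP, encoded by CFLAR, resembles caspase 8 and competes with it at the receptor. FAS is the death receptor of another ligand and uses the same adaptor. Interferons are known inducers of TNFSF10, and DR5 is known to respond to p53 and to stress of the endoplasmic reticulum.

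The window before the start of TNFSF10 is shown because it holds the core letters of an interferon-stimulated response element. The factor containing IRF9 binds that element. Both TNFSF10 and IRF9 were lower in LCCTam, and whether IRF9 has a part in the fall of TNFSF10 was not tested. The window of PLSCR1, an interferon-induced gene whose values across the arrays were among the nearest to those of TNFSF10, is shown for comparison. Each is the 250 bases before the annotated start (RefSeq, GRCh38.p14), both on the minus strand, at chr3:172523431-172523680 for TNFSF10 and chr3:146544596-146544845 for PLSCR1. The capitals mark the match to the core searched for, which was 2 copies of TTTC with any 2 bases between them, on either strand.
TNFSF10: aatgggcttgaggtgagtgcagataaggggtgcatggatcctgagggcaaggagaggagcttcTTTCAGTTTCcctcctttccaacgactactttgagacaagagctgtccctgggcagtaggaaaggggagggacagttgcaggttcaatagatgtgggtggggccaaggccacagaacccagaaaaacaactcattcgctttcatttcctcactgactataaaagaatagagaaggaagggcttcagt
PLSCR1: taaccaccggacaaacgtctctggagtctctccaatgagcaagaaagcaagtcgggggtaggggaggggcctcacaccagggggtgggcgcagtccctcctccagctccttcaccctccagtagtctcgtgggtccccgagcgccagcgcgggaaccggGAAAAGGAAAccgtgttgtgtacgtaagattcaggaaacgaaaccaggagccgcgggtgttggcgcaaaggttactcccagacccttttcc
The match in TNFSF10 covered the bases from 187 to 178 before the start, and the one in PLSCR1, on the other strand, those from 91 to 82. Of 35116 windows of this length in the table, 1061 (3.02%) held a match. Among the members, 5 genes had a window, and of their 12 windows 1 held a match, that of TNFSF10. PLSCR1 had 2 windows with a match, from overlapping starts. Of the 5 genes nearest to TNFSF10 in pattern, named below, PLSCR1 alone had a match. PHF14, HSPA4L and FRYL had 1, 3 and 1 windows without one, and OAS2 had no window. A match says that the letters are present and does not show that a factor binds.

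The 6 arrays had medians from 5.92 to 5.97. Their upper quartiles were less even, at 7.495 on LCCTam replicate 3 against 7.67 to 7.77 on the other 5 arrays. LCCTam replicate 3 stood apart in its control probe sets, with a 3' minus 5' difference of 1.92 for actin against 0.90 to 1.15 on the other 5 arrays, and of 0.61 for GAPDH against 0.09 to 0.31. A larger difference is usually read as a sign of shorter RNA, and its part in the results was not tested. Of the 8 luminal breast markers, all measured, ESR1, which encodes the estrogen receptor, was lower (-1.65) and the other 7 did not pass through their brightest probe set, with 3 of the 8 lower at an unadjusted p under 0.05 in limma. MUC1, a luminal surface mucin, was at -1.38 on its brightest probe set (limma adjusted p = 0.0517) and passed on another at -1.40 (limma adjusted p = 0.0340). Their summed log2 level was 92.5 to 93.7 in SUM44 and 88.0 to 90.2 in LCCTam. None of 4 basal, 6 leukocyte or 5 endothelial markers passed. Summed, the leukocyte markers were at 28.7 to 29.2 in SUM44 and 28.8 to 29.7 in LCCTam. At an unadjusted p under 0.05 limma also gave 0 for these 3 lists. Of 7 fibroblast markers COL3A1 alone passed (-4.42), and their sum was 39.9 to 40.3 in SUM44 and 35.3 to 35.9 in LCCTam. The part of other cells in the results below was not tested.

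TNFSF10 passed as lower in LCCTam on 2 of its 3 probe sets, and TNFRSF10B, the gene of DR5, on 1 of 3. No probe set of FAS, the decoy receptors, FADD, the caspases or CFLAR passed. Of the 31 probe sets 3 passed lower and 0 higher, where 7.37% of all named probe sets passed, 5.65% lower and 1.72% higher. At an unadjusted p under 0.05 limma gave 4 lower and 0 higher, against 22.7% of all named probe sets, 14.7% lower and 8.01% higher. The median difference of the 31 was -0.04 and that of all named probe sets 0.01. Of the 31, 20 lay below 0, against 8991 of all 19065. CFLAR, which is 1 gene, gave 10 of these 20. Through the brightest probe set, 6 of the 9 genes lay below 0, against 5551 of all 11963. For 8 of the 31 the SUM44 and LCCTam values were apart without overlap, all lower in LCCTam, against 29.6% of all named probe sets, 16.6% lower and 13% higher. Taken through its brightest probe set, 2 of the 9 genes were lower without overlap, against 29.8% of all genes, 16.6% lower and 13.2% higher. The number of members that passed depended on single arrays. It was 2 without LCCTam replicate 3, 1 without SUM44 replicate 1, SUM44 replicate 3 or LCCTam replicate 2, and 0 without SUM44 replicate 2 or LCCTam replicate 1. In the same refits, all named probe sets passing lower numbered 1361 without LCCTam replicate 3, against 1078 with all 6 arrays. They numbered 820, 731 and 517 without SUM44 replicate 1, SUM44 replicate 3 and LCCTam replicate 2. Without SUM44 replicate 2 and LCCTam replicate 1 they numbered 295 and 364. With quantile normalization, 896 of all named probe sets passed lower. These were 57.0% of the 1572 that passed, against 76.7% as deposited, while the same number of members, 3, passed.

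**Figure D1:**
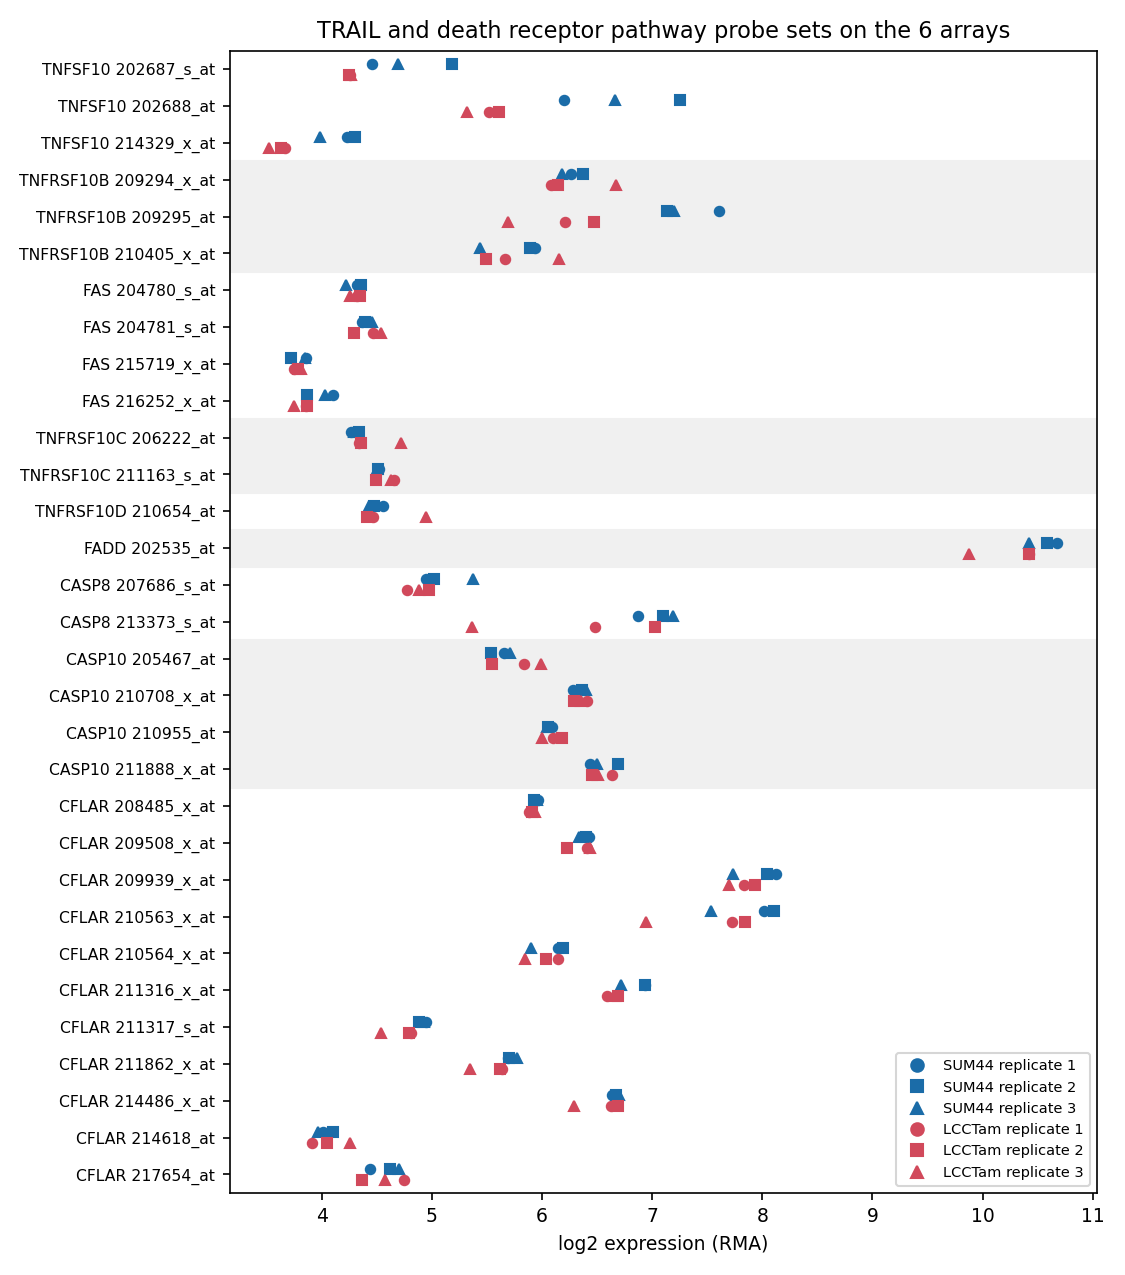
Log2 expression (horizontal axis) of the 31 probe sets, grouped by gene, on each of the 6 arrays, with SUM44 in blue, LCCTam in red and a symbol for each replicate. The 3 probe sets of TNFSF10 and 209295_at of TNFRSF10B have all LCCTam values below all SUM44 values, while most others overlap.

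The brightest TNFSF10 probe set, 202688_at, read 6.20, 7.25 and 6.66 in SUM44 and 5.52, 5.61 and 5.32 in LCCTam. SUM44 replicate 2 was the highest, the LCCTam arrays lay close together, and the lines did not overlap. The means were 6.70 ± 0.53 and 5.48 ± 0.15 (SD, n = 3 each). The difference was -1.22 (SE 0.25, 95% interval -1.81 to -0.63, limma adjusted p = 0.0326), or 2.33-fold lower. In bulk RNA, fewer cells with the transcript and less transcript per cell cannot be told apart. The sign held when any array was left out, at -1.47 to -0.95. The adjusted p passed only without SUM44 replicate 1 (0.0137), and was 0.0545 to 0.1125 without any other of the 6 arrays.

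The other TNFSF10 probe sets were dimmer. Probe set 214329_x_at read 4.23, 4.31 and 3.99 in SUM44 and 3.67, 3.64 and 3.53 in LCCTam, with no overlap. Its difference was -0.57 (SE 0.11, limma adjusted p = 0.0258), and its LCCTam mean was at percentile 1.21 of all named probe sets. The suffix _x_at marks probes that can bind other transcripts. Without SUM44 replicate 3 or LCCTam replicate 3 it passed, and without any other array its adjusted p was 0.0728 to 0.119. Probe set 202687_s_at read 4.46, 5.19 and 4.70 in SUM44 and 4.26, 4.25 and 4.26 in LCCTam. These groups did not overlap either, and the difference of -0.52 (SE 0.18) did not pass (limma adjusted p = 0.135). Without SUM44 replicate 2 it was -0.32. SUM44 replicate 2 was the highest of the 6 arrays on all 3 probe sets. Without detection calls it is not known how far these probe sets, the dimmer ones above all, stood above background.

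The genes whose pattern over the 6 arrays was nearest to that of TNFSF10 were OAS2, PLSCR1, PHF14, HSPA4L and FRYL, of 11962 other genes. Nearness was the Euclidean distance between log2 values after each gene's own mean was taken off, from 0.21 for OAS2 to 0.52 for FRYL. OAS2, an antiviral enzyme that makes short chains of adenylate, read 6.23, 7.53 and 6.81 in SUM44 and 5.68, 5.62 and 5.44 in LCCTam. PLSCR1, a phospholipid scramblase, read 5.22, 6.37 and 5.94 in SUM44 and 4.90, 4.89 and 4.47 in LCCTam. In both, as on 202688_at of TNFSF10, SUM44 replicate 2 was the highest array, SUM44 replicate 1 the lowest of its line and LCCTam replicate 3 the lowest of all. The genes were chosen by nearness to these same values, so the shared order and size of the fall are no separate result. The other TNFSF10 probe sets did not have this order throughout. OAS2 differed by -1.28 (limma adjusted p = 0.0496) and PLSCR1 by -1.09 (adjusted p = 0.0668). OAS2 passed without SUM44 replicate 1, and without any other array its adjusted p was 0.0792 to 0.141. With all 6 arrays it was 0.0507 to 0.0542 under quantile normalization, robust eBayes, all non-control probe sets or no _x_at and _s_at probe sets, so the call of OAS2 was also lost there. HSPA4L, a heat shock protein, and FRYL fell by 1.33 and 1.20 on the log2 scale. FRYL passed whichever array was left out, and HSPA4L passed without SUM44 replicate 1 or LCCTam replicate 3, with 0.0655 to 0.0861 without any other. PHF14 differed by -1.16 (-0.75 without SUM44 replicate 2) and did not pass (limma adjusted p = 0.0999).

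**Figure D2:**
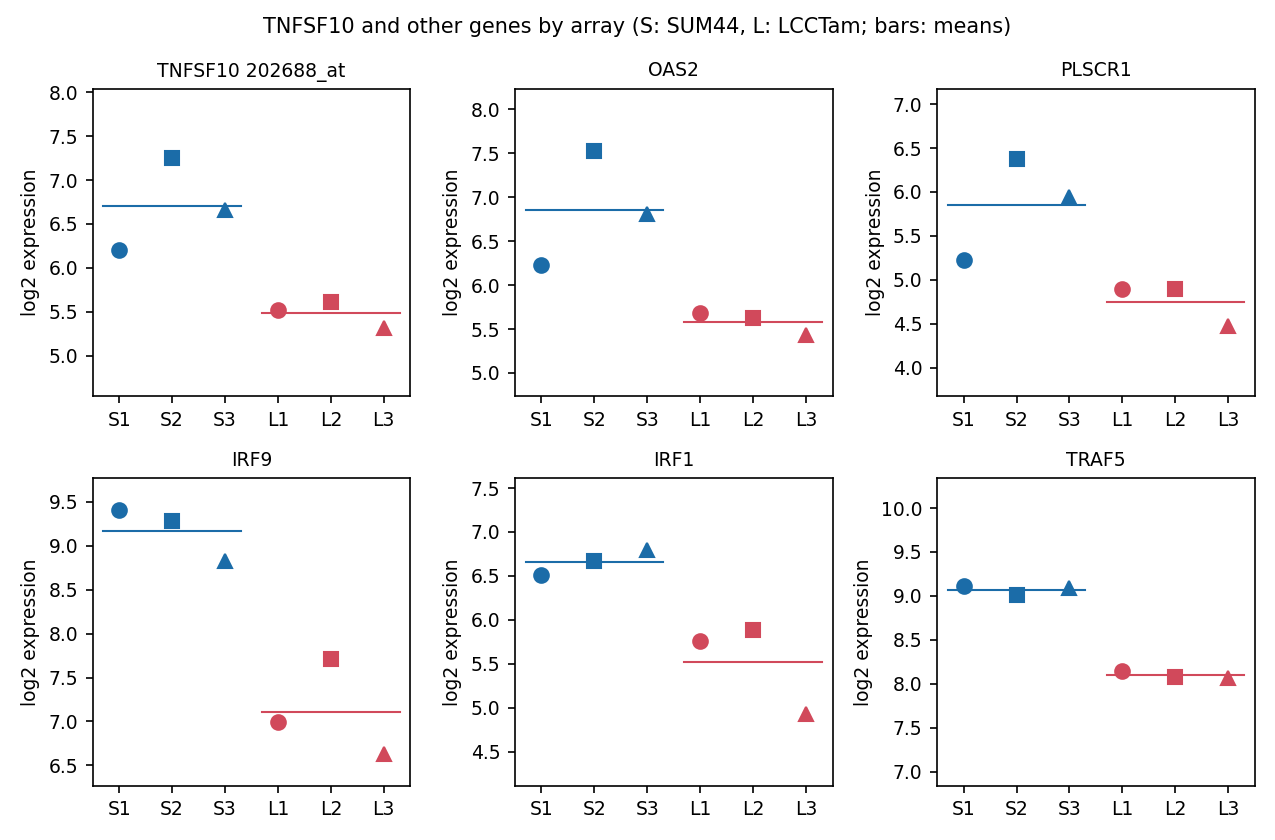
Log2 expression (vertical axes, each spanning the same number of log2 units) by array for TNFSF10, the 2 genes nearest to it in pattern, the factors IRF9 and IRF1, and TRAF5, with SUM44 replicates as S1 to S3, LCCTam replicates as L1 to L3 and bars at the means. SUM44 replicate 2 is highest for TNFSF10, OAS2 and PLSCR1, and not for IRF9, where SUM44 replicate 1 reads 9.41.

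Among the receptors, the 3 probe sets of TNFRSF10B disagreed. Probe set 209295_at, the brightest of them, read 7.60, 7.13 and 7.20 in SUM44 and 6.21, 6.47 and 5.69 in LCCTam. Every LCCTam array was below every SUM44 array, and LCCTam replicate 3 was the lowest. The means were 7.31 ± 0.26 and 6.13 ± 0.40 (SD, n = 3 each), a difference of -1.19 (SE 0.22, 95% interval -1.70 to -0.67, limma adjusted p = 0.0230), or 2.28-fold lower. It was -0.97 without LCCTam replicate 3 (adjusted p = 0.0187) and passed without LCCTam replicate 2. Without any 1 of the other 4 arrays its adjusted p was 0.0535 to 0.0836.

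The other TNFRSF10B probe sets did not move that way. Probe set 209294_x_at read 6.26, 6.38 and 6.18 in SUM44 and 6.08, 6.15 and 6.67 in LCCTam, and 210405_x_at read 5.94, 5.89 and 5.44 against 5.67, 5.49 and 6.15. On both, LCCTam replicate 3 was the highest of the 6 arrays, where 209295_at was at its lowest, and the lines overlapped. The differences were 0.03 (95% interval -0.36 to 0.41) and 0.01 (95% interval -0.47 to 0.50). They were -0.16 and -0.18, and neither passed, when LCCTam replicate 3 was left out. Both carry the suffix _x_at. Which part of the transcript each probe set reads was not analysed here, and whether the larger 3' minus 5' difference of that array has a part in the disagreement was not tested.

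The decoy receptors did not pass. TNFRSF10C, which encodes DcR1, had 2 probe sets with differences of 0.17 (206222_at, 95% interval -0.11 to 0.45) and 0.08 (211163_s_at, 95% interval -0.11 to 0.28). Without LCCTam replicate 3, 206222_at was at 0.05. TNFRSF10D, which encodes DcR2, had 1, 210654_at, which read 4.56, 4.48 and 4.43 in SUM44 and 4.47, 4.41 and 4.95 in LCCTam. LCCTam replicate 3 alone lay above the SUM44 values, and the difference of 0.12 (95% interval -0.24 to 0.47) was -0.05 without it. The means of all 3 decoy probe sets lay between 4.30 and 4.61, at percentiles 13.6 to 20.1. The 4 FAS probe sets read 3.78 to 4.43 in the mean, at percentiles 3.70 to 16.3, and differed by -0.18 to 0.02. Of these, 216252_x_at was lower without overlap and did not pass (limma adjusted p = 0.312). Leukocyte markers, which a carcinoma line should lack, had means of 3.78 to 6.15 here, a range that holds all of these receptor means. Intensities of different probe sets do not rank their transcripts, and these values do not tell whether FAS, DcR1 or DcR2 was expressed. The leukocyte marker range also holds the LCCTam means of 202688_at of TNFSF10 (5.48) and 209295_at of TNFRSF10B (6.13). Their SUM44 means, 6.70 and 7.31, lay above it.

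The change of TNFRSF10B on 209295_at was set against that of other receptors within each array. Its log2 value less that of TNFRSF10D was 2.65 to 3.05 in SUM44 and 0.75 to 2.06 in LCCTam, a shift of -1.30 in LCCTam. Against TNFRSF10C the shift was -1.27 and against FAS -1.21. In these 3 pairs the lines did not overlap, and the exact two-sided permutation p was 0.10, the smallest that 3 against 3 arrays allow (0.167 after Benjamini-Hochberg adjustment over the 5 pairs compared). So the design could not place these shifts past a threshold of 0.05. The comparator probe sets are the dim ones just described, which are not shown to be above background, so the shifts largely repeat the -1.19 of 209295_at and do not show a change relative to expressed receptors. With the mean over all probe sets of each gene in place of the brightest, they were smaller, at -0.50 against TNFRSF10D, -0.51 against TNFRSF10C and -0.34 against FAS.

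**Figure D3:**
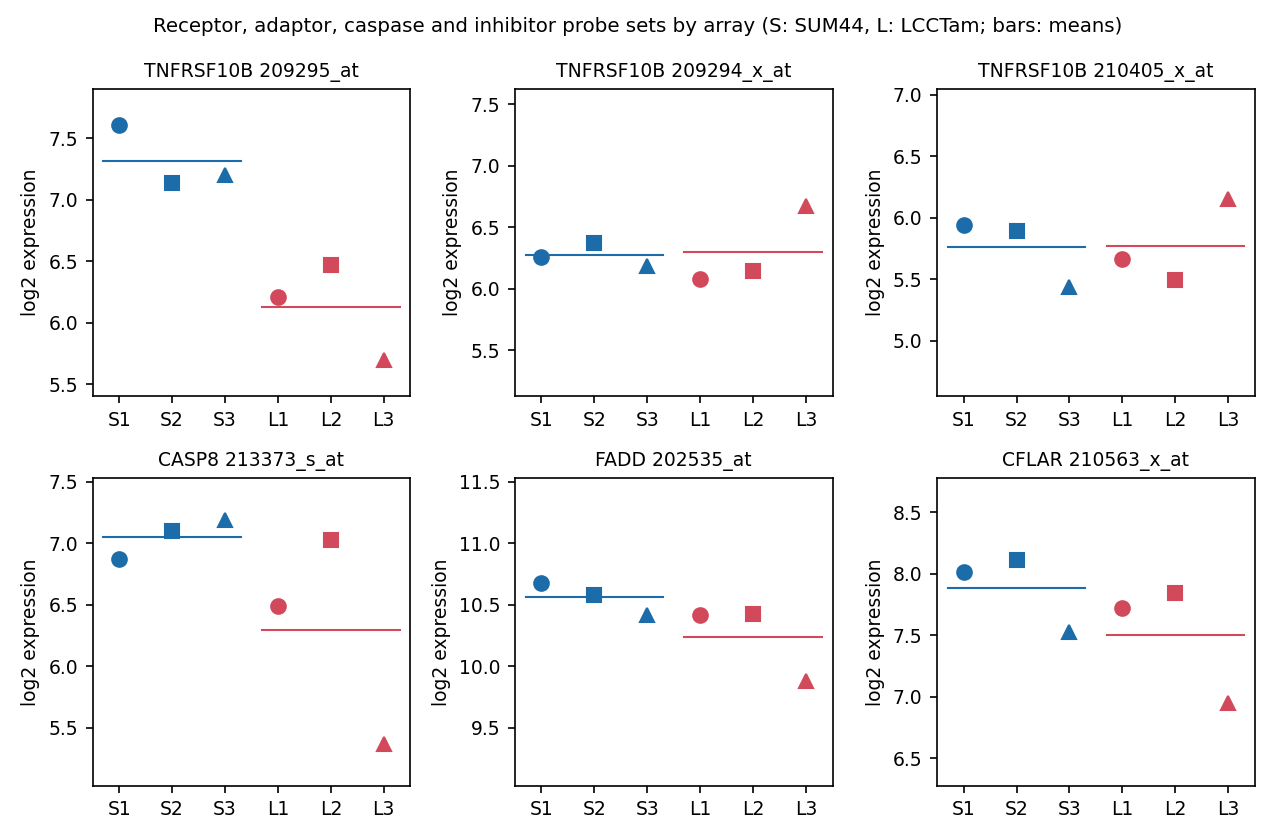
Log2 expression (vertical axes, each spanning the same number of log2 units) by array for the 3 probe sets of TNFRSF10B, the brighter CASP8 probe set, FADD and a CFLAR probe set, with SUM44 replicates as S1 to S3, LCCTam replicates as L1 to L3 and bars at the means. LCCTam replicate 3 is lowest on 209295_at (5.69), CASP8 (5.37), FADD (9.88) and CFLAR 210563_x_at (6.95), and highest on the other TNFRSF10B probe sets.

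FADD, the adaptor of the death receptors, was read by 1 probe set, at 10.68, 10.58 and 10.42 in SUM44 and 10.42, 10.42 and 9.88 in LCCTam. LCCTam replicate 3 was the lowest, and the lines overlapped. The difference was -0.32 (95% interval -0.71 to 0.07, limma adjusted p = 0.310), and -0.14 without that array.

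CASP8, the initiator caspase of the pathway, had 2 probe sets, both lower in the mean and neither passing. The brighter, 213373_s_at, read 6.87, 7.10 and 7.19 in SUM44 and 6.49, 7.02 and 5.37 in LCCTam. LCCTam replicate 2 lay within the SUM44 range and LCCTam replicate 3 far below it. The difference of -0.76 (95% interval -1.67 to 0.14, limma adjusted p = 0.297) was -0.30 without LCCTam replicate 3. The other probe set, 207686_s_at, differed by -0.23 (95% interval -0.54 to 0.07), and by -0.10 without SUM44 replicate 3. CASP10, the related initiator caspase, had 4 probe sets with differences from -0.01 to 0.15, none of them without overlap. The widest of their intervals, on 205467_at, ran from -0.15 to 0.46, and its difference of 0.15 was 0.05 without LCCTam replicate 3 and 0.28 without LCCTam replicate 2.

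CFLAR, the gene of c-FLIP, had 11 probe sets, of which 10 lay below 0 and none passed. At an unadjusted p under 0.05 limma also gave 0 of the 11. Their differences ran from -0.38 to 0.04, with a median of -0.14. Those on 211316_x_at, 211317_s_at and 211862_x_at were without overlap, at -0.21, -0.21 and -0.19 (limma adjusted p = 0.236, 0.276 and 0.339). Without LCCTam replicate 3, 211317_s_at was at -0.12 and 211862_x_at at -0.09. With quantile normalization 211316_x_at was at -0.13, 211317_s_at at -0.22 and 211862_x_at at -0.19. The largest difference, on 210563_x_at, came with readings of 8.02, 8.11 and 7.53 in SUM44 and 7.72, 7.85 and 6.95 in LCCTam, and was -0.10 without LCCTam replicate 3. These probe sets read 1 gene, 8 of them with the suffix _x_at, so they are not independent, and which splice form each one reads was not analysed here. Within arrays, CASP8 (213373_s_at) fell short of CFLAR (209939_x_at) by a shift of -0.62 and of CASP10 (211888_x_at) by -0.75, with overlap in both and an exact permutation p of 0.3 each. Without LCCTam replicate 3 these shifts were -0.21 and -0.30.

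**Figure D4:**
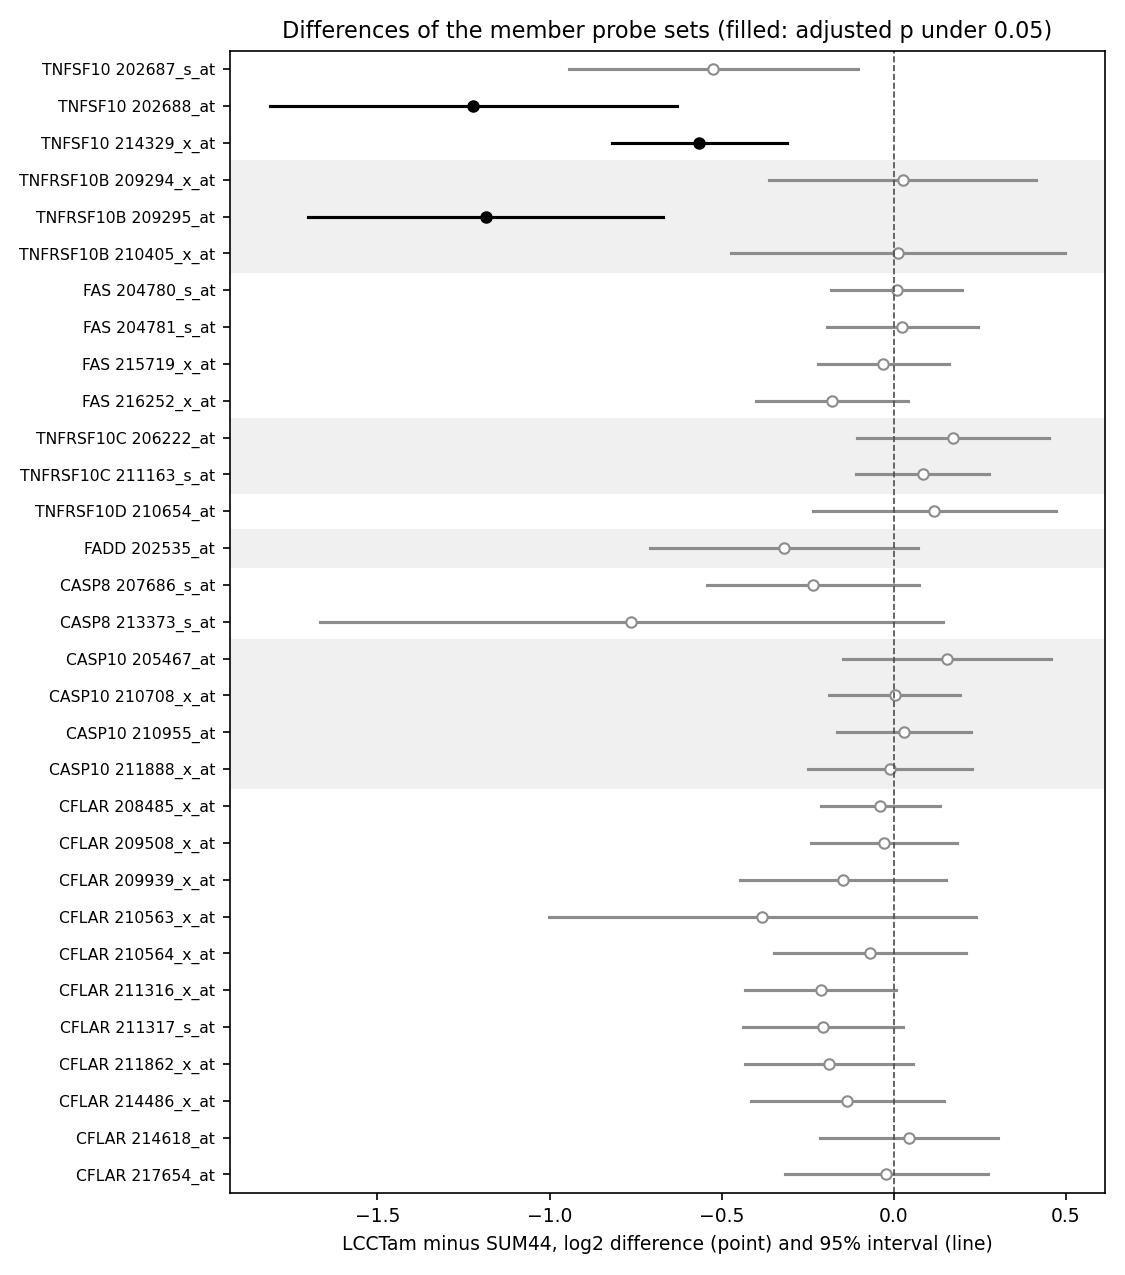
Difference LCCTam minus SUM44 (horizontal axis, log2) of each of the 31 probe sets, with the 95% interval of the limma fit as a line and filled points where the adjusted p was under 0.05. The filled points are 202688_at and 214329_x_at of TNFSF10 and 209295_at of TNFRSF10B, all below 0.

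The series' design text selects by a change of 2-fold or more, p under 0.05 without adjustment and, in each line, a mean not under the log2 of 10. By that selection, with p from limma, 2 of the 31 probe sets were selected, 202688_at of TNFSF10 and 209295_at of TNFRSF10B. It took 2.23% of all named probe sets, 1.74% lower and 0.488% higher. FAS, FADD, CASP8, CASP10, CFLAR and the decoy receptors gave none.

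Beyond these members, 83 other genes of the pathway were listed by role, of which 69 were measured, each through its brightest probe set. Of these 69, 3 rose and 4 fell, where 7.76% of all genes passed, 2.03% higher and 5.73% lower. The median difference of all genes was 0.02. At an unadjusted p under 0.05 limma gave 7 higher and 19 lower of the 69. It gave 23.5% of all genes, 14.8% lower and 8.65% higher, the shares against which the unadjusted counts below can be read. The passing number depended on single arrays, at 1 to 7 lower and 0 to 4 higher when each was left out. It was 2 lower and 0 higher without SUM44 replicate 3, LCCTam replicate 1 or LCCTam replicate 2, 1 and 0 without SUM44 replicate 2, 4 and 1 without SUM44 replicate 1, and 7 and 4 without LCCTam replicate 3. The number of all named probe sets passing lower changed in these refits too, as given above.

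Adaptors and kinases of the receptor complexes held most of these changes. There were 3 higher and 1 lower among 12 measured, and the median was 0.03. At an unadjusted p under 0.05 limma gave 3 higher and 4 lower. TRAF5, an adaptor of tumour necrosis factor receptors, read 9.11, 9.01 and 9.09 in SUM44 and 8.14, 8.08 and 8.07 in LCCTam, so that the lines stood far apart beside a narrow spread. It fell by 0.97 on the log2 scale (SE 0.08, limma adjusted p = 0.00142) and passed whichever array was left out. TRADD, the adaptor of the tumour necrosis factor receptor TNFRSF1A, rose by 0.58 (adjusted p = 0.0296). CYLD, a deubiquitinase that limits signalling from these receptors, rose by 0.70 (adjusted p = 0.0476), and MAP3K5, the stress kinase ASK1, by 0.39 (adjusted p = 0.0352). For each of these 3 genes 1 probe set passed, of 3, 7 and 2, and all 3 carry the suffix _s_at. TRADD and MAP3K5 passed only without LCCTam replicate 3 when single arrays were left out, with 0.0691 to 0.133 and 0.0765 to 0.144 otherwise. With all 6 arrays MAP3K5 did not pass with the intensity filter (0.0556) or with eBayes with trend (0.0644). CYLD passed only without SUM44 replicate 1 (0.0461), with 0.0698 to 0.151 otherwise, and did not pass with robust eBayes on all 6 arrays (0.0517).

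Transcription factors known to act on TNFSF10 or on its receptors gave 0 higher and 2 lower of 14 measured, with a median of -0.14, and at an unadjusted p under 0.05 limma gave 0 higher and 5 lower. IRF9, the DNA-binding part of the interferon-activated factor ISGF3, read 9.41, 9.28 and 8.83 in SUM44 and 6.99, 7.71 and 6.63 in LCCTam, without overlap. It fell by 2.06 on the log2 scale (limma adjusted p = 0.00880), and its adjusted p was 0.0573 without SUM44 replicate 2. IRF1, another factor that binds TNFSF10 in interferon responses, read 6.51, 6.67 and 6.80 in SUM44 and 5.76, 5.88 and 4.93 in LCCTam. It fell by 1.14 (adjusted p = 0.0389), and when single arrays were left out it passed only without LCCTam replicate 3, with 0.0517 to 0.146 otherwise. Of the stress factors that act on TNFRSF10B, DDIT3, which encodes CHOP, differed by 0.16 and ATF4 by -0.11, and neither passed. These 2 were picked after their values were seen.

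The remaining lists held few genes that passed. Among 7 death ligands TNFSF10 alone passed. Of 10 other receptors of the family 0 passed, with 1 higher and 1 lower at an unadjusted p under 0.05 in limma. The largest difference among them was in TNFRSF14, the receptor HVEM, at -0.30 (adjusted p = 0.105). Of 9 effector caspases and their substrates 0 passed, with 0 higher and 4 lower unadjusted, a median of -0.25 and the largest difference in DFFB, the nuclease that cuts DNA in apoptosis, at -0.41 (limma adjusted p = 0.0770). Of 6 inhibitor of apoptosis proteins and their antagonists 0 passed, with 0 higher and 1 lower unadjusted, and the largest difference was in BIRC2, which encodes cIAP1, at -0.42 (limma adjusted p = 0.190). Without LCCTam replicate 3, BIRC2 passed at -0.57 (limma adjusted p = 0.0463). Of 12 genes of receptor glycosylation and trafficking 0 rose and 1 fell, with 3 higher and 4 lower at an unadjusted p under 0.05 in limma. That gene was CUL3, part of a ubiquitin ligase that acts on caspase 8, at -0.75 (limma adjusted p = 0.0224). Of its 3 probe sets 2 passed. When single arrays were left out, CUL3's brightest passed only without LCCTam replicate 3, with 0.0565 to 0.0937 otherwise.

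Some of the members sit in clusters of neighbouring genes. TNFRSF10B, TNFRSF10C, TNFRSF10D and TNFRSF10A follow each other on chromosome 8, and CFLAR, CASP10 and CASP8 on chromosome 2. Of all 11963 genes, 5551 lay below 0, and 2.03% passed higher and 5.73% lower. Of the 20 measured genes that flank the receptor cluster, 10 on each side, 0 rose, 1 fell and 5 lay below 0, with a median of 0.10. The one that fell was STC1, the secreted hormone stanniocalcin, at a difference of -1.93 (limma adjusted p = 0.00241). The nearest neighbours, RHOBTB2 before and CHMP7 after the cluster, differed by 0.12 and 0.19 and did not pass. Of the 20 genes that flank CFLAR, CASP10 and CASP8, 0 rose, 1 fell and 16 lay below 0, with a median of -0.16. CLK1, a splicing kinase, fell by 1.07 (limma adjusted p = 0.0200). It did not pass without SUM44 replicate 2, LCCTam replicate 1 or LCCTam replicate 2 (0.0674 to 0.0884). TRAK2, next to CASP8, differed by -1.33 (limma adjusted p = 0.0512). RHOBTB2, CHMP7 and TRAK2 were picked after their values were seen.

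**Figure D5:**
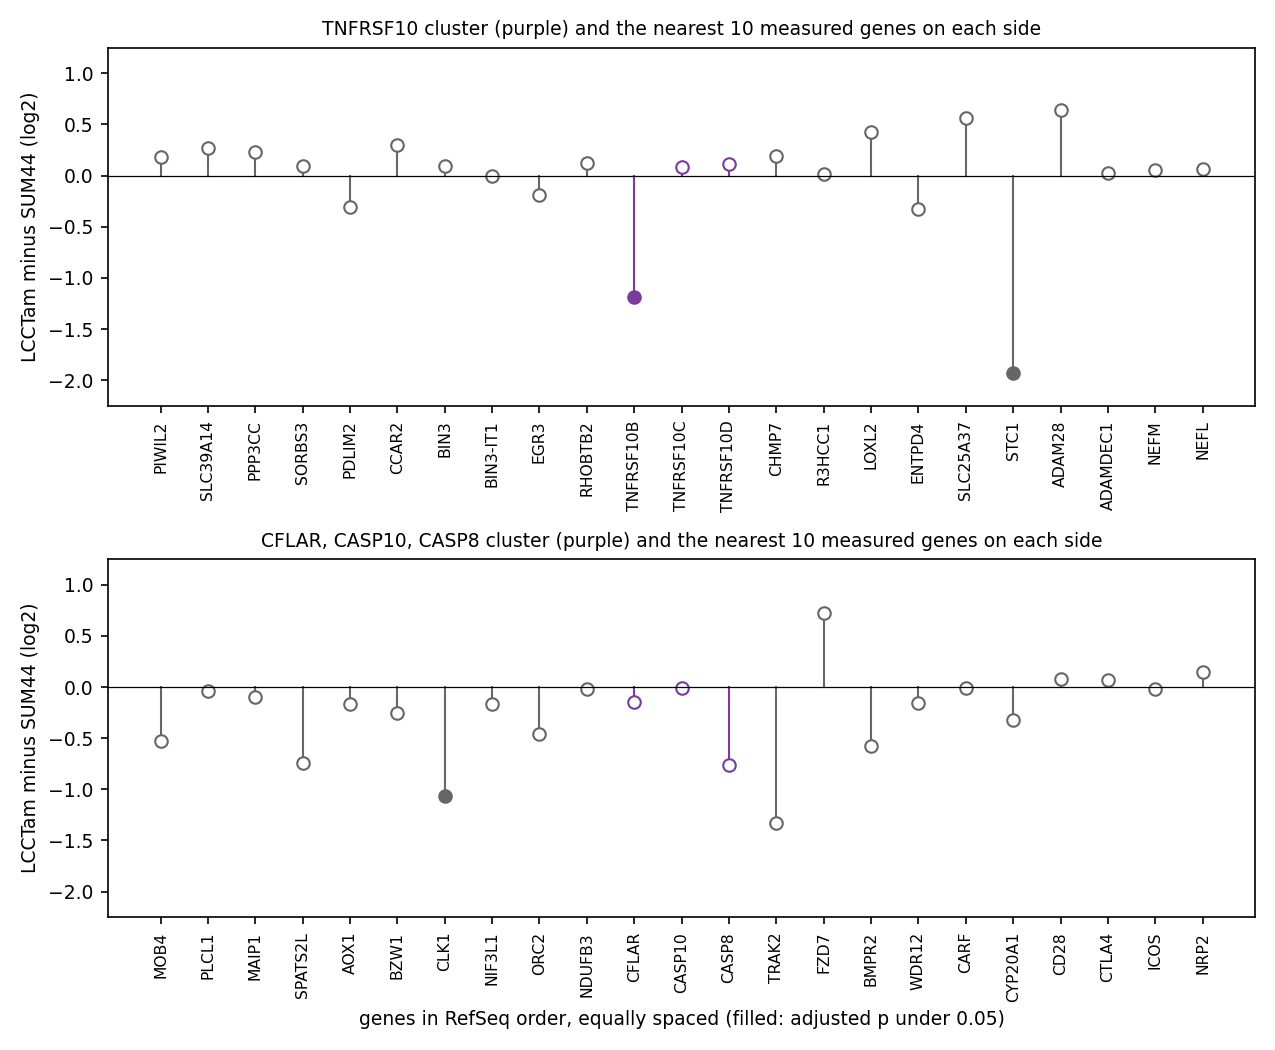
Difference LCCTam minus SUM44 (vertical axis, log2) of the brightest probe set of each gene, in RefSeq gene order with equal spacing, for the members of each cluster (purple) and the 10 measured genes on each side (grey), filled where the adjusted p was under 0.05. TNFRSF10B (-1.19) and STC1 (-1.93) stand below neighbours that lie between -0.33 and 0.64.

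The genes whose pattern was nearest to 209295_at of TNFRSF10B were NR3C2, DHRS2, MED28, SLC24A3 and TMPRSS3, at distances of 0.31 to 0.41. None of the 5 nearest to TNFSF10 was among them. NR3C2, the mineralocorticoid receptor gene, read 7.31, 6.99 and 6.90 in SUM44 and 6.27, 6.30 and 5.63 in LCCTam. As on 209295_at, SUM44 replicate 1 was the highest and LCCTam replicate 3 the lowest. Here too the likeness follows from the choice by nearness. DHRS2, a dehydrogenase, differed by -0.97, SLC24A3, a sodium and calcium exchanger, by -0.89 and TMPRSS3, a membrane serine protease, by -1.01, and all 3 passed, as did NR3C2 at -1.0 (limma adjusted p from 0.0178 to 0.0363). MED28, a subunit of the mediator complex, differed by -1.07 (limma adjusted p = 0.0516). When single arrays were left out, NR3C2, DHRS2 and SLC24A3 passed only without LCCTam replicate 3 and had 0.0539 to 0.134 otherwise. TMPRSS3 did not pass without SUM44 replicate 2 or LCCTam replicate 1 (0.0858 and 0.0818).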

How the data were processed

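Total RNA of 6 samples, 3 per line, was hybridized to Affymetrix arrays. The authors deposited log2 expression made by RMA with Bioconductor, per the series' design text and the submitters' processing notes. Its version is not given in the sources used here, nor is joint processing of the arrays. Scan dates were not used, so array batch and line cannot be told apart here, and the number of arrays limits the precision.

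Of 22283 probe sets, 68 controls were left out and 19065 had 1 gene symbol in the platform annotation, for 11963 genes. Symbols of 19053 were updated by Entrez identifier with RefSeq (GRCh38.p14). Probe sets with several symbols, among them 2 that list TNFRSF10C, were not used. The lines were compared with limma 3.58.1 in R 4.3.3 (lmFit, eBayes, no intensity filter) in 1 fit. The brightest probe set by mean over the 6 arrays stood for a gene in the lists, flanks and patterns. Members, lists and tests were chosen with earlier results of these data known.

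The genes named are the members, up to 3 passing genes per list or the 1 with the largest difference, the 5 nearest in pattern to TNFSF10 and to TNFRSF10B, passing flanking genes, and those said to be picked later. Alternatives were quantile normalization, array weights, an intensity filter, the brightest probe set per gene, probe sets without the suffixes _x_at and _s_at, all non-control probe sets, eBayes with trend or robust, the design text's selection and each array left out. A pair with TNFRSF10A could not be compared. Simulated data for LCCTam against SUM44 had 19065 probe sets, 50 of them changed per size. On these the fit recovered 24% of changes of 0.5, 94% of 1, 96% of 2 and 100% of 3. Of its 166 calls 9 were false. These shares are those of the simulated data only. Nothing in the labels says that passages are independent cultures, so the p-values reflect only how these samples varied, which may be technical.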

Additional observations from a re-analysis of the deposited data

How the results depend on the processing

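No paired analysis was possible because the lines share no passage or replicate number in the labels. The 31 member probe sets were compared with their alternatives 372 times: 328 kept direction and side of the threshold, 13 lost the call, all with 1 array left out, 3 gained it, all with array weights, and 28, on 12 probe sets that do not pass, changed sign. Array weights, which gave 6207 passing probe sets of all named and 6 members lower, with 18 other pathway genes lower and 9 higher, moved counts most. All named probe sets that passed numbered 687 without those with the suffixes _x_at and _s_at, where 0 other pathway genes were higher, 425 by the design text's selection, where 2 were lower and 0 higher, and 382 to 2238 with 1 array left out. With 1 array left out, members passing lower numbered 0 to 2. The causes were not tested, though fewer arrays or probe sets enter some of these fits.

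The sign changes were small. With array weights TNFRSF10B 209294_x_at was -0.21, TNFRSF10B 210405_x_at -0.14, TNFRSF10D 210654_at -0.0059, CASP10 211888_x_at 0.0021, and CFLAR 210564_x_at, 214618_at and 217654_at 0.0044, -0.12 and 0.095. With quantile normalization CASP10 211888_x_at was 0.045 and CFLAR 209508_x_at 0.028. With 1 array left out, TNFRSF10B 209294_x_at ran from -0.16 to 0.14, TNFRSF10B 210405_x_at from -0.18 to 0.15, FAS 204780_s_at from -0.030 to 0.035, FAS 204781_s_at from -0.028 to 0.095 and TNFRSF10D 210654_at from -0.051 to 0.22. CASP10 210708_x_at ran from -0.031 to 0.032, CASP10 210955_at from -0.013 to 0.076 and CASP10 211888_x_at from -0.063 to 0.065. CFLAR 209508_x_at ran from -0.069 to 0.035, CFLAR 210564_x_at from -0.16 to 0.013, CFLAR 214618_at from -0.050 to 0.13 and CFLAR 217654_at from -0.11 to 0.076. Other pathway genes passing numbered 1 to 7 lower and 0 to 4 higher.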
